A study of Mus musculus with 2 samples.

Results

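Steroid-metabolising enzymes of mouse liver were followed through 9 genes, Hsd3b2, Hsd3b3, Hsd3b5, Hsd11b1, Hsd17b2, Akr1c6, Akr1d1, Srd5a1 and Cyp17a1, out of 22609 gene symbols counted in each library. They were selected on symbol and function while their read ratios between these same libraries were known, so the ratios are given as a description and without a test. RNA came from livers of male C57BL/6 mice, and 2 libraries were compared. The first carries the genotype label Lrg1 knockout, for animals lacking Lrg1 in the whole body, and is called the knockout-labelled library here. The other was wild type, from C57BL/6J animals. Both groups ate feed in which fat supplied 45% of the calories, for 16 weeks starting at 8 weeks of age. The labels do not say how many mice a library holds, at what hour they were killed or whether they had fasted. With 1 library per genotype every difference is between these libraries and has no replicate check.

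The liver both makes and clears steroid signals. Hydroxysteroid dehydrogenases switch a steroid between its hydroxyl and keto forms, which turns hormones on or off. Reductases saturate the ring of androgens, progestins and glucocorticoids, and conjugating enzymes then ready the products for excretion. In mice several of these genes differ between the sexes under the control of pituitary growth hormone, and Hsd3b5 is a textbook male-specific liver transcript.

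Hsd3b2, Hsd3b3 and Hsd3b5 are copies that lie side by side on the minus strand of chromosome 3, in the order Hsd3b4, Hsd3b5, Hsd3b2, Hsd3b3, Hsd3b6 and Hsd3b1 (GENCODE M21). Their likeness bears on every count below, so the first 50 bases of the coding sequence are shown for 4 copies, with capitals for bases that differ from Hsd3b5 (GENCODE M21 transcripts, 5′ to 3′). A sequenced read was also 50 bases long.
Hsd3b5: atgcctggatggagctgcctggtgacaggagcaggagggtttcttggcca
Hsd3b4: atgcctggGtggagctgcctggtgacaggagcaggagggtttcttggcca
Hsd3b3: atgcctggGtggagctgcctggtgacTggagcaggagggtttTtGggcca
Hsd3b2: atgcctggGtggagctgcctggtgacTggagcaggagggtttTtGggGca
In this stretch Hsd3b4 differed from Hsd3b5 at 1 base, Hsd3b3 at 4 and Hsd3b2 at 5. Over the whole coding sequence of 1119 bases, Hsd3b5 was 95.2% identical to Hsd3b4 and 81.3% identical to Hsd3b3, while Hsd3b2 and Hsd3b3 were 95.1% identical to each other. Hsd3b6 was nearly as close to these 2 copies, at 94.4% to Hsd3b2 and 94.5% to Hsd3b3. Gm10681, an annotated copy with the same coding sequence as Hsd3b4, was likewise 95.2% identical to Hsd3b5. Another annotated copy, Gm4450, was 99.6% identical to Hsd3b4. Hsd3b5 thus stands nearer to Hsd3b4 and its annotated copies than to Hsd3b2 or Hsd3b3.

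The windows around the starts of the 3 copies are shown because neighbouring genes had very different ratios (RefSeq, GRCm38.p6, minus strand, 250 bases before to 50 after the gene start). Capitals mark runs of at least 12 identical bases that occur in at least 1 of the other windows shown.
Hsd3b5, chr3:98645485-98645784: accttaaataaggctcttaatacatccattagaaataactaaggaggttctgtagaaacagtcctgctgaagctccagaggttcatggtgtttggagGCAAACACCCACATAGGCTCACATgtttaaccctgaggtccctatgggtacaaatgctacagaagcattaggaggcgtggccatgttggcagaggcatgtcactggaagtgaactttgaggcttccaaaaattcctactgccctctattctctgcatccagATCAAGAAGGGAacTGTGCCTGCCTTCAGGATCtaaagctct
Hsd3b3, chr3:98763079-98763378: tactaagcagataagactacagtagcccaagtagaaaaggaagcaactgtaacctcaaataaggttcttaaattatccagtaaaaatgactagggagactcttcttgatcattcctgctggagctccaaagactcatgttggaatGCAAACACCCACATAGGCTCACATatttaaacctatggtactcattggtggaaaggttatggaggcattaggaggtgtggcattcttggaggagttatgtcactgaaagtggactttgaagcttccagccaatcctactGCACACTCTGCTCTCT
Hsd3b2, chr3:98724494-98724793: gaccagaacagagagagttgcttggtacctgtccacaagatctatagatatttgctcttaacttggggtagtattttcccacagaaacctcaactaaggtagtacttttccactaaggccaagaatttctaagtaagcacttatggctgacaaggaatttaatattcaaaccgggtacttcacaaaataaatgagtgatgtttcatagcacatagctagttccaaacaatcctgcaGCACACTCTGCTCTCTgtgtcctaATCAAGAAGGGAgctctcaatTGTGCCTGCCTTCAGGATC
Aligned end to end, the Hsd3b5 window was 76.3% identical to that of Hsd3b3 over 249 aligned bases and 69.0% identical to that of Hsd3b2 over 255. A second Hsd3b3 window, not shown, was 77.2% identical to that of Hsd3b5. Motifs were searched on both strands. TTCNNNGAA, the STAT5 motif, TTATGNAA, the motif of PAR bZIP factors such as DBP, CACGTG, the E-box, and the palindrome of the glucocorticoid receptor had 0 matches in these windows. They were present in 8.30%, 3.38%, 7.15% and 0.00913% of 32851 promoter windows of the same length. The absence of these letters says nothing of binding elsewhere. Among the 7 members in the promoter table, 1 match was found in Akr1d1 and 1 in Hsd11b1, both to TTATGNAA. The Akr1d1 window is shown with that match in capitals, 8 bases before the start (RefSeq, GRCm38.p6, plus strand).
Akr1d1, chr6:37529923-37530222: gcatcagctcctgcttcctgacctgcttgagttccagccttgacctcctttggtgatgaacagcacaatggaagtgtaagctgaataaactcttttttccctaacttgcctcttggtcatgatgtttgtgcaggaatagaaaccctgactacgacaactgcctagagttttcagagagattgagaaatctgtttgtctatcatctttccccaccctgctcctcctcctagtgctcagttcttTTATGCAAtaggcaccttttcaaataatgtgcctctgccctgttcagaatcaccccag
Hsd17b2 and Cyp17a1 had no window in the table used.

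The knockout-labelled library held 18738397 reads in genes and the wild-type library 23311906. Levels are given in CPM, the count scaled to a library size that edgeR adjusts by TMM, where 1 read was worth 0.0519 CPM in the knockout-labelled library and 0.0441 CPM in wild type. Intervals are exact 95% intervals that cover counting error only, since PCR copies of 1 molecule cannot be told from separate molecules. Lrg1 itself, a secreted leucine-rich glycoprotein, had 17572 reads (911.2 CPM) in the knockout-labelled library and 26958 reads (1190 CPM) in wild type, a ratio of 0.766 (0.751 to 0.780). The counts do not show which part of the gene the reads cover, so they neither show nor exclude the deletion, and whether the genotype label is right was not tested. Every direction below goes by the labels and would turn if they were swapped. Hepatocyte markers were abundant in both libraries, with Alb at 1241979 reads in the knockout-labelled library and 1793429 in wild type.

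Hsd3b5 was far higher and Cyp17a1 far lower in the knockout-labelled library, and the other 7 genes were within 2-fold. All 9 members had at least 50 reads summed over the libraries, and 1 of them was higher and 1 lower by 2-fold or more. Of 11411 genes measured by that minimum, 1.71% were higher by 2-fold or more, 2.49% were lower by as much and 4.2% were past 2-fold in either direction. Since the members were chosen with the ratios known, nothing is read from their share. The median log2 ratio of the knockout-labelled library to wild type, after adding 0.5 reads to each count, was 0.18 for the members and -0.01 for all measured genes. The counting interval of every member lay on 1 side of no difference, which at these depths holds even for small ratios and leaves the spread between mice unmeasured. In whole tissue, fewer cells of a type and less RNA per cell cannot be told apart.

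**Figure D1:**
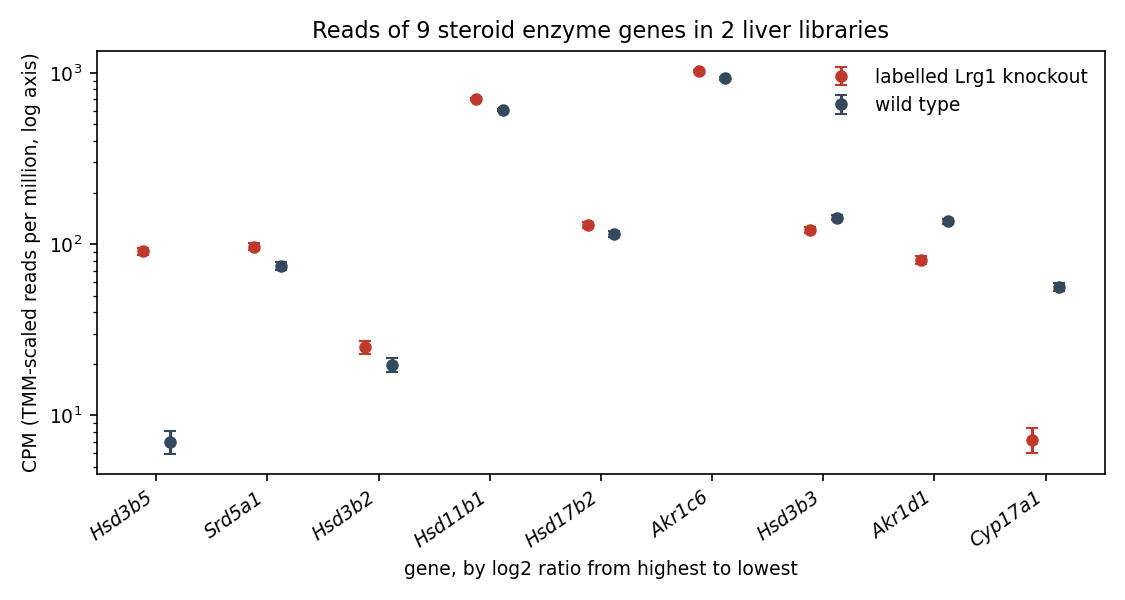
Level of the 9 genes in CPM (log axis) in the knockout-labelled library and in the wild-type library, 1 point per library, with exact 95% Poisson intervals as bars. Hsd3b5 stood at 90.8 CPM in the knockout-labelled library against 6.97 CPM in wild type and Cyp17a1 at 7.16 CPM in the knockout-labelled library against 56.1 CPM in wild type, while the points of the other genes lay close together.

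Hsd3b5 encodes a 3-ketosteroid reductase that inactivates androgens in male mouse liver. It had 1750 reads in the knockout-labelled library and 158 in wild type. In CPM these were 90.8 (86.5 to 95.1) in the knockout-labelled library and 6.97 (5.93 to 8.15) in wild type. The ratio was 13.0 (11.1 to 15.4), a log2 ratio of 3.70. Only 2 of the 11411 measured genes had a higher ratio, and Hsd3b5 was the highest of the 8459 genes with at least 300 reads. The genes of that depth with the nearest log2 ratios over the 2 libraries were Gadd45g, a growth arrest gene (difference 0.17), Socs2, an inhibitor of cytokine receptor signalling (0.47), and Serpina4-ps1, a pseudogene (0.85).

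Hsd3b3, an enzyme expressed in mouse liver and kidney, was the most read copy of the cluster in both libraries. It had 2341 reads (121.4 CPM) in the knockout-labelled library and 3238 reads (142.9 CPM) in wild type. Its ratio was 0.849 (0.805 to 0.896), so it went slightly the other way from its neighbour. Hsd3b2 had 481 reads (24.9 CPM) in the knockout-labelled library and 446 reads (19.7 CPM) in wild type, a ratio of 1.27 (1.11 to 1.44).

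As a share of reads over Hsd3b1 to Hsd3b6, which does not depend on the scaling of libraries, the make-up of the cluster differed most for Hsd3b5. It took 38.2% (36.8 to 39.7) of 4577 reads in the knockout-labelled library and 4.10% (3.50 to 4.78) of 3851 in wild type. Hsd3b3 took 51.1% (49.7 to 52.6) in the knockout-labelled library and 84.1% (82.9 to 85.2) in wild type. The share of Hsd3b2 was 10.5% (9.64 to 11.4) in the knockout-labelled library and 11.6% (10.6 to 12.6) in wild type, with overlapping intervals. Summed over the 6 symbols, the reads corresponded to 237.4 CPM in the knockout-labelled library and 170.0 CPM in wild type, a ratio of 1.40 (1.34 to 1.46). The 13.0-fold difference of a single copy thus stood beside a 1.40-fold difference for the cluster as a whole.

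**Figure D2:**
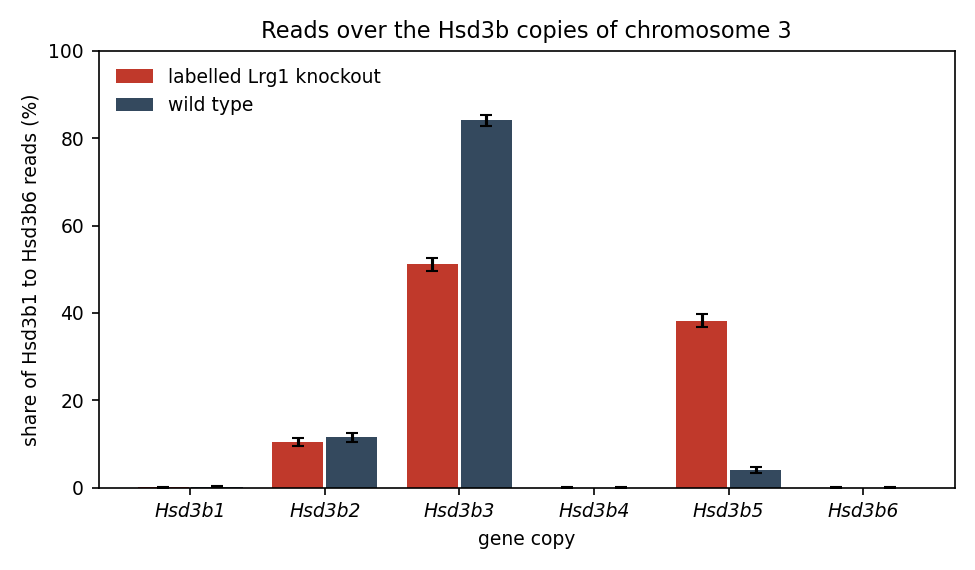
Share of reads (%) taken by each of the 6 Hsd3b symbols of chromosome 3 in the knockout-labelled library and in wild type, with exact 95% binomial intervals as error bars. In the knockout-labelled library Hsd3b5 took 38.2% and Hsd3b3 51.1%, against 4.10% and 84.1% in wild type.

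The other symbols of the cluster had few or no reads. Hsd3b1, the form of gonads and adrenal, had 5 reads in the knockout-labelled library and 9 in wild type. Hsd3b4 and Hsd3b6 had 0 reads in both, where the exact interval reaches 0.191 CPM in the knockout-labelled library and 0.163 CPM in wild type. For Hsd3b4 that limit says little, because 0 of its 1588 transcript windows of 50 bases were absent from other genes: each also occurred in Gm10681, an annotated copy. Only uniquely aligned reads were counted, so reads from such windows would be lost. Hsd3b5 kept 78.8% of its 1500 windows to itself by exact match, and 50.5% were more than 2 mismatches away from every other copy compared. The corresponding shares were 73.1% and 76.9% for Hsd3b2, 91.3% and 85.9% for Hsd3b3 and 84.3% and 50.6% for Hsd3b6. Here the exact match was against all genes and the looser match against Hsd3b copies. Exons of Zfp697 overlap Hsd3b2 and Hsd3b3 on the opposite strand, and whether the counting used strand is not stated. Single values of the copies are uncertain for these reasons. Hsd3b7, on chromosome 7, is a more distant relative that acts on bile acid precursors, at 62.6% coding identity to Hsd3b5. It had 14424 reads in the knockout-labelled library and 14952 in wild type, a log2 ratio of 0.18, and overlaps other annotated genes.

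Cyp17a1 encodes the P450 with hydroxylase and lyase activity at the branch point to glucocorticoids and androgens. It lies on chromosome 19 and had 138 reads in the knockout-labelled library and 1270 in wild type. These corresponded to 7.16 CPM (6.01 to 8.45) in the knockout-labelled library and 56.1 CPM (53.0 to 59.2) in wild type. The ratio was 0.128 (0.106 to 0.152), a log2 ratio of -2.97, so that the level was 7.83-fold higher in wild type. Of the measured genes 22 had a lower ratio. Every window of 50 bases in its annotated transcripts was absent, by exact match, from transcripts of other genes. The genes nearest in log2 ratio were Gstm3, a glutathione transferase (difference 0.08), Lpin1, a phosphatidate phosphatase (0.09), and Per3, a clock gene (0.11).

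Cyp17a1 is best known from steroid-making glands, and defining markers of those glands were at or near 0 in both libraries. Of 8 adrenal cortex markers, Cyp11b2, Nr5a1 and Mc2r had 0 reads in both libraries, and Cyp11b1 had 0 reads in the knockout-labelled library and 1 in wild type. The list summed to 46 reads in the knockout-labelled library and 71 in wild type, most of them from Star, the mitochondrial cholesterol carrier (26 knockout-labelled and 45 wild-type reads), and Cyp21a1 (18 knockout-labelled and 20 wild-type reads). The 6 Leydig cell markers summed to 27 reads in the knockout-labelled library and 47 in wild type, and Insl3 had 0 knockout-labelled and 1 wild-type read. Cyp11a1, which starts steroid synthesis from cholesterol, had 1 read in each library.

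Akr1d1 and Srd5a1 encode the reductases that saturate the steroid A ring in its 2 possible orientations, and they differed in opposite directions. Akr1d1, which also serves bile acid synthesis, had 1559 reads (80.8 CPM) in the knockout-labelled library and 3086 reads (136.2 CPM) in wild type. Its ratio was 0.593 (0.558 to 0.631). It was the only member besides Hsd3b5 and Cyp17a1 past 1.5-fold, a threshold that 12.8% of measured genes passed in either direction and 6.91% as lower genes. Srd5a1 had 1865 reads (96.7 CPM) in the knockout-labelled library and 1689 reads (74.6 CPM) in wild type, a ratio of 1.30 (1.21 to 1.39). Within each library, Srd5a1 made up 54.5% (52.8 to 56.1) of the reads of the pair in the knockout-labelled library and 35.4% (34.0 to 36.7) in wild type. That comparison was chosen after the values were seen. Srd5a1 shares exonic sequence with Gm17108, an annotated transcript overlapping it on the same strand, and 84.9% of its windows were its own.

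Akr1c6, a 17-ketosteroid reductase of mouse liver, was the most read member. It had 19779 reads (1026 CPM) in the knockout-labelled library and 21008 reads (927.4 CPM) in wild type, a ratio of 1.11 (1.08 to 1.13). Hsd11b1, which regenerates active glucocorticoid inside hepatocytes, had 13569 reads (703.7 CPM) in the knockout-labelled library and 13792 (608.8 CPM) in wild type, a ratio of 1.16 (1.13 to 1.18). Hsd17b2, which oxidises estradiol and testosterone to weaker forms, had 2493 reads (129.3 CPM) in the knockout-labelled library and 2585 (114.1 CPM) in wild type, a ratio of 1.13 (1.07 to 1.20). These 3 abundant enzymes were therefore near 1 in ratio, and their values move most, in relation to their size, with the scaling of the libraries.

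**Figure D3:**
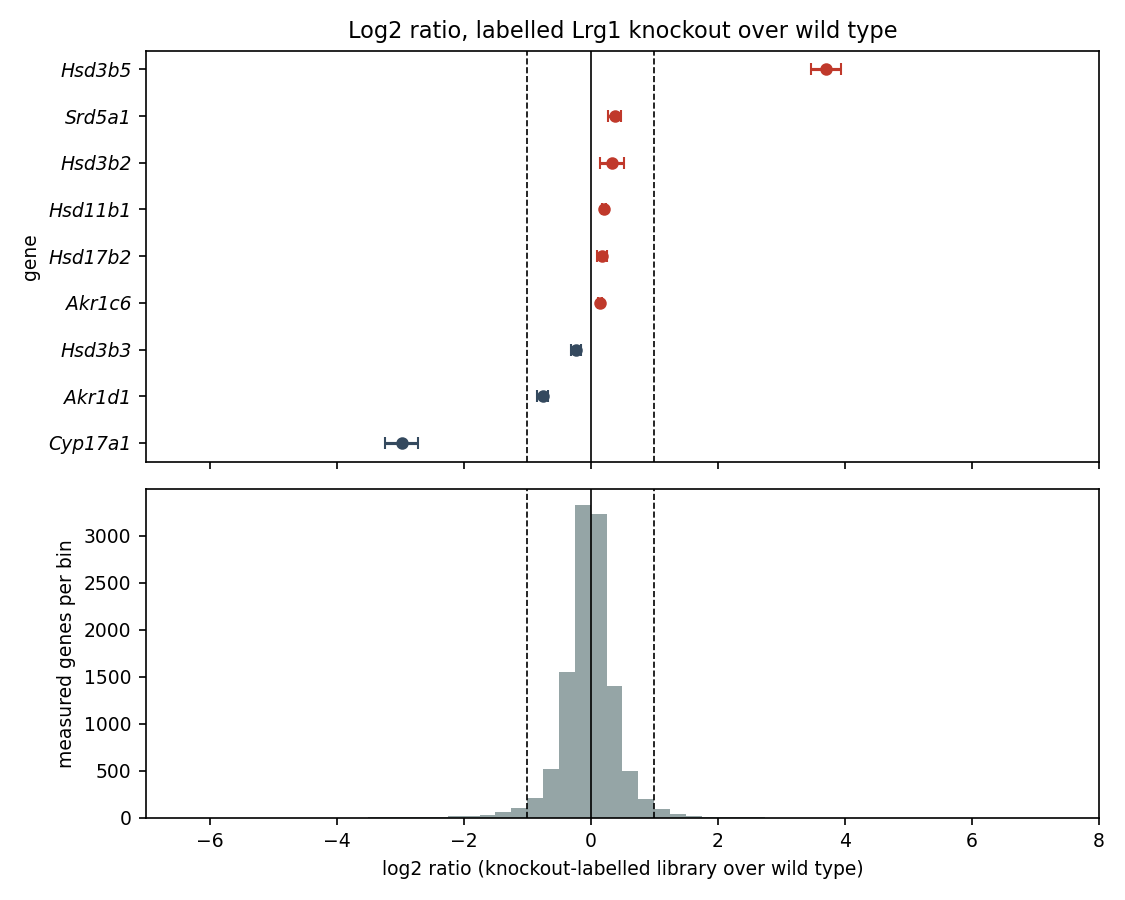
Upper panel, log2 ratio of the knockout-labelled library to wild type for each of the 9 genes with exact 95% intervals for counting error (red above 0, dark below). Lower panel, number of the 11411 measured genes in bins of the same ratio; dashed lines mark 2-fold. Hsd3b5 at 3.70 and Cyp17a1 at -2.97 lie in the thin tails, and the other members lie between -0.75 and 0.38.

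Levels were compared between genes as CPM per kilobase of annotated exons. In the knockout-labelled library Akr1c6 was highest at 504.5, followed by Hsd11b1 at 165.5, Hsd17b2 at 67.2 and Hsd3b5 at 58.6. Below them came Srd5a1 at 33.2, Akr1d1 at 27.9, Hsd3b3 at 19.0, Hsd3b2 at 6.75 and Cyp17a1 at 2.58, with no overlap of neighbouring counting intervals. By this length the same 3 genes led in wild type, with Akr1c6 at 456.2, Hsd11b1 at 143.2 and Hsd17b2 at 59.3. Akr1d1 followed at 47.1, then Srd5a1 at 25.6, Hsd3b3 at 22.3, Cyp17a1 at 20.2, Hsd3b2 at 5.33 and Hsd3b5 at 4.50, and only the intervals of the last pair overlapped. The order depended on the length used, most of all for Hsd3b3. Its exons span 6396 bases together, but transcripts with the full coding sequence have a median of 1512.5 bases, and with that length, chosen after seeing the data, it stood at 80.3 per kilobase in the knockout-labelled library and 94.5 in wild type, above Hsd3b5 in both. In wild type it then also stood above Hsd17b2, at 86.4, while Cyp17a1, at 30.9, stood above Srd5a1, at 28.2. Hsd3b5 was the lowest member in wild type with either length.

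Related dehydrogenases outside the 9 genes were within 2-fold where measured. Of 10 measured relatives of the 11β and 17β classes, 0 were past 2-fold, beside 4.2% of all measured genes. Their median log2 ratio was 0.18. Dhrs9, a dehydrogenase of retinoids and steroids, was at 0.84 on 52 reads in the knockout-labelled library and 34 in wild type. Hsd17b11, a lipid droplet enzyme, was at 0.42, Hsd17b10, a mitochondrial enzyme, at -0.37 and Hsd17b7, which acts in cholesterol synthesis, at 0.27. Hsd11b2, the kidney enzyme that inactivates glucocorticoid, and Hsd17b3, the testis enzyme that makes testosterone, had 0 reads in both libraries, as had Hsd17b14. Hsd17b1 had 4 reads in the knockout-labelled library and 3 in wild type.

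Of the other measured Akr1c genes only Akr1c12 had a log2 ratio above 0, and the counting interval of its fold (0.965 to 1.14) included no difference. Of 6 measured genes in the list of other Akr1c and Srd5a members, 0 were past 2-fold, beside 4.2% of all measured genes. Below 0 were 5 of them, beside 5890 of all 11411 measured genes, and the median was -0.32. Akr1c19 was at -0.98, Akr1c20 at -0.65 and Akr1c14, a hydroxysteroid dehydrogenase that follows Akr1d1 in steroid reduction, at -0.51. Srd5a3, which serves protein glycosylation, was at -0.13, Akr1c13 at -0.11 and Akr1c12 at 0.07. Akr1c12 and Akr1c13 are close copies, and 71.4% and 75.8% of their windows were their own. Srd5a2 had 14 reads in the knockout-labelled library and 20 in wild type, Akr1c18 had 0 in the knockout-labelled library and 2 in wild type, and Akr1c21 and Akr1cl had none.

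Of 9 measured electron and cofactor partners, 0 were past 2-fold, beside 4.2% of all measured genes, and the median was -0.13. Below 0 were 7 of them, beside 5890 of all 11411 measured genes. Por, the reductase that hands electrons to Cyp17a1 and other microsomal P450s, had 4463 reads in the knockout-labelled library and 9949 in wild type, a ratio of 0.527 (log2 -0.92). Cyb5r3, a cytochrome b5 reductase, was at -0.47 and Cyb5b at -0.31. H6pd, which makes the NADPH that Hsd11b1 uses, was at -0.23, with 13914 reads in the knockout-labelled library and 19196 in wild type, while Hsd11b1 itself was slightly higher. Cyb5a, listed as Cyb5 and known to aid the lyase step of Cyp17a1, had a ratio of 0.976.

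Steroid-hydroxylating P450s ranged from -3.64 to 1.12. Past 2-fold were 5 of 11 measured genes, 4 lower and 1 higher in the knockout-labelled library, beside 4.2% of all measured genes. Below 0 were 8 of the 11, beside 5890 of all 11411 measured genes. The median was -0.32, or -0.02 with a minimum of 200 reads. Cyp2b9, a female-biased enzyme, had 387 reads in the knockout-labelled library and 4348 in wild type (log2 -3.26). Cyp2a4, a female-biased testosterone hydroxylase, was at -3.64 on 7 knockout-labelled and 109 wild-type reads, Cyp2b10 at -2.52 on 12 knockout-labelled and 84 wild-type reads, and Cyp2a5 at -1.94. Cyp2a4 and Cyp2a5, and Cyp2b9 and Cyp2b10, belong to families of close copies and their single values are uncertain. Cyp7b1, an oxysterol and androgen hydroxylase of male liver, was higher at 1.12, with 5615 reads in the knockout-labelled library and 3028 in wild type. The other measured P450s of the list were within 2-fold, with Cyp2d9 at 0.35 and Cyp4a12a at 0.32. Below the minimum, Cyp3a16 had 15 knockout-labelled and 14 wild-type reads. Cyp3a44 had 6 knockout-labelled and 13 wild-type reads, and Cyp3a41a had none. Cyp17a1 was lower like the low Cyp2 genes and Hsd3b5 higher like Cyp7b1, and a common cause was not tested.

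Among conjugating enzymes, 1 of 13 measured genes was higher by 2-fold or more and 0 were lower by as much. Of all measured genes these shares were 1.71% and 2.49%. The median was 0.23, a value that changed sign with the minimum on reads. Ugt2b38 was at 2.61 on 137 reads in the knockout-labelled library and 26 in wild type, Ugt2b37 at 0.77, Ugt2a3 at 0.63 and Ugt2b1 at 0.63. The Ugt2b genes are close copies, so these values are uncertain. Below the minimum, Sult3a1 had 0 reads in the knockout-labelled library and 21 in wild type, Sult2a1 had 0 knockout-labelled and 4 wild-type reads, Sult2a2 had 0 knockout-labelled and 5 wild-type reads, and Sult1e1, the estrogen sulfotransferase, had 7 knockout-labelled and 20 wild-type reads.

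Of 11 measured receptors and carriers of steroids, 2 were lower by 2-fold or more in the knockout-labelled library, beside 2.49% of all measured genes. Below 0 were 9 of them, beside 5890 of all 11411 measured genes, and the median was -0.43. Fkbp5, a receptor co-chaperone and glucocorticoid target, was at -1.98. Esr1, the estrogen receptor, was at -0.52 and Nr1i2, the xenobiotic and steroid receptor PXR, also at -0.52. Among genes known to respond to glucocorticoids, 4 of 11 were lower by 2-fold or more and 0 were higher by as much. Of all measured genes these shares were 2.49% and 1.71%. The median of the list was -0.51. Lpin1 was at -3.05, Fkbp5 at -1.98, Per1 at -1.81 and Zbtb16 at -1.79, whereas the amino acid catabolic gene Tat was at 0.66 and the kinase Sgk1 at 0.71. The genes of the list past 2-fold were thus all lower, while 4 of the 11 were above 0, beside 5521 of all 11411 measured genes. Per1 also belongs to the clock genes described below. The Hsd11b1 ratio was 1.16, and a link between it and these genes was not tested.

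Bile acid synthesis genes, which share Akr1d1 as a step, had a median of 0.02, with 6 of 12 above 0, beside 5521 of all 11411 measured genes. Besides Cyp7b1, Cyp7a1, the rate-limiting enzyme of the main route, was at 0.85 with 1085 reads in the knockout-labelled library and 708 in wild type. Acox2, a peroxisomal side chain oxidase, was at -0.62 and Akr1c14 at -0.51. Akr1d1, at -0.75, lay below all 12 of them.

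Genes of the growth hormone and STAT5 axis and of the clock also differed between the libraries, and their part in the values of Hsd3b5 and Cyp17a1 was not tested. Past 2-fold were 3 of 13 measured genes of the axis, 2 higher and 1 lower in the knockout-labelled library, beside 4.2% of all measured genes. The median of the axis was 0.15, and 9 of the 13 were above 0, beside 5521 of all 11411 measured genes. Socs2 was at 3.23 and Cish at 1.74, both feedback inhibitors that STAT5 induces, Onecut1 was at 0.98, and Bcl6, a repressor of STAT5 targets, was at -1.12. Ghr, the receptor, was at 0.01, Igf1 at 0.15, Igfals at 0.19, Stat5b at 0.30, Stat5a at -0.53 and Hnf4a at -0.51. Past 2-fold were also 8 of 12 clock genes, 6 lower and 2 higher, beside 2.49% lower and 1.71% higher among all measured genes. Dbp was at -3.31, Per3 at -3.08, Per2 at -2.63 and Npas2 at 2.21. Per1, Nr1d1, Tef and Arntl made up the rest of those past 2-fold, at -1.81, -1.47, -1.36 and 1.49. The hour of collection is not given, so hour and genotype cannot be told apart.

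**Figure D4:**
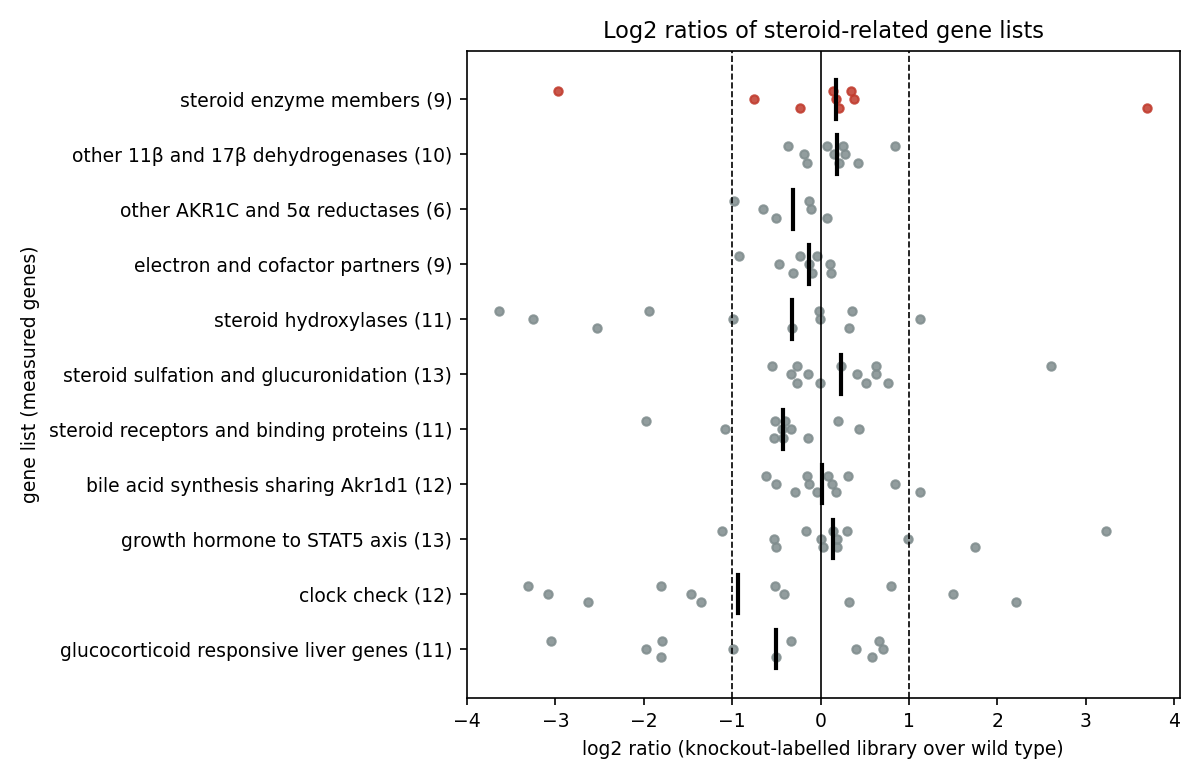
Log2 ratio of the knockout-labelled library to wild type for each measured gene (1 point each, spread vertically for sight only) of the 9 members, in red, and of 10 related lists. Black bars mark list medians and dashed lines mark 2-fold; the number of measured genes stands in brackets. Hsd3b5 lies farther right than any gene of the related lists, the nearest being Socs2 at 3.23, and Cyp17a1 lies among the low P450, clock and glucocorticoid-responsive genes.

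Markers of other liver cells also differed. Summed levels of 6 sinusoidal endothelial markers were 247.9 CPM in the knockout-labelled library and 167.0 CPM in wild type, with 5 of 6 higher. The 6 Kupffer cell markers summed to 303.9 CPM in the knockout-labelled library and 371.5 CPM in wild type. Of these 5 of 6 were lower, beside 5890 of all 11411 measured genes, from Marco at -2.04 to Clec4f at 0.15. Stellate markers summed to 341.3 CPM in the knockout-labelled library and 327.6 CPM in wild type. Of these 5 of 6 were higher, beside 5521 of all 11411 measured genes, from Col1a1 at -1.07 to Ngfr at 0.78. Cholangiocyte markers summed to 8.50 CPM and adipocyte markers to 9.49 CPM in the knockout-labelled library, against 8.83 and 11.8 CPM in wild type. Their part in the steroid enzyme values was not tested.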

How the data were processed

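Liver RNA was measured in 2 libraries, 1 per genotype. Per the labels' protocols, about 500 ng of total RNA was poly(A)-selected, made into libraries with a stranded kit and read as single reads of 50 bases. Per the submitters' processing notes, the tools were bcl2fastq, TopHat2 and HTSeq and the build mm9, with no versions, strand setting or annotation stated. The authors deposited raw counts per gene symbol, and these were used unchanged. Lines naming no gene stayed out of the totals: of unique alignments, 14.4% lay outside genes in the knockout-labelled library and 14.0% in wild type, and ambiguous reads were 0.234% in the knockout-labelled library and 0.231% in wild type.

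Scaling between libraries used TMM, a trimmed mean of log ratios, from edgeR 4.0.16 (R 4.3.3; factors 1.03 for the knockout-labelled library and 0.972 for wild type). Log2 ratios, knockout-labelled over wild type, used a prior count of 0.5. Genes with at least 50 reads in all were taken as measured. Folds have exact Clopper-Pearson 95% intervals given the summed count, levels exact Poisson intervals. With 1 library per genotype there was no test and no p-value. The steps were tested on simulated data. Members, 12 related lists, marker lists, motifs and the rule for named genes (the members, Lrg1, in each list the 4 measured genes farthest from 0, or all where 6 or fewer were measured, and those past 2-fold, and the 3 genes nearest in ratio) were chosen with earlier results of these data known. Genes below the minimum, and cell type markers other than Star, were named after their values were seen. So were Cyb5a, Ghr, Tat, Sgk1, Cyp2d9, Cyp4a12a, Igf1, Igfals, Stat5a, Stat5b and Hnf4a. The rule does not take these genes. A gene of the receptor list that the rule takes is not reported here. Of 179 list symbols 175 were found, some under older symbols (Cyb5a as Cyb5). Exon lengths and 50-base windows came from GENCODE M21 (GRCm38), promoters from RefSeq (GRCm38.p6). The counts are on mm9, so the coordinates printed are those of the promoter windows only and not of the counted exons. Alternatives were total-count and DESeq2 1.42.0 scaling, total count without the 20 most abundant genes, a prior count of 2, other minimums and other thresholds. All else ran in Python 3.11.15 (scipy 1.17.1, numpy 2.4.6, matplotlib 3.10.9, pandas 2.3.3).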

Additional observations from a re-analysis of the deposited data

Results flagged for a closer look

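Alignments to more than 1 place lie outside the counts per gene. Their part of all lines counted was 58.0% for the knockout-labelled library and 50.3% for wild type, and they stood out as plentiful data that no comparison here draws on. How many of them came from Hsd3b or Akr1c copies cannot be read from the counts.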

How the results depend on the processing

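No paired analysis was possible because each genotype has 1 library, and for the same reason no library could be left out. The log2 ratios of all 9 members kept their sign under the 3 other scalings and the prior count of 2, and Hsd3b5 stayed between 3.69 and 3.78 and Cyp17a1 between -2.97 and -2.88. Scaling by total count put every ratio 0.08 higher, which by construction is beyond the counting interval of abundant genes: Hsd3b3 was then at -0.15, Hsd11b1 at 0.29, Hsd17b2 at 0.26, Akr1c6 at 0.23 and the sum over all Hsd3b symbols at 0.33, against 0.25. Without the 20 most abundant genes in the total, Hsd11b1 was at 0.27, Akr1c6 at 0.20 and the Hsd3b sum at 0.31. At a threshold of 1.5-fold 2 members were lower. The number of measured genes past the threshold, 195 higher and 284 lower, follows from the filter and threshold: a minimum of 1 read gave 1246 higher with 1379 lower, 10 reads gave 461 with 519, 200 reads gave 101 with 166, a 1.5-fold threshold gave 672 with 788 and a 3-fold threshold 52 with 105. The median of conjugating enzymes was 0.23, but it ranged down to -0.14 with other minimums, the median of steroid hydroxylases was -0.02 and that of clock genes -1.36 with a minimum of 200 reads, against -0.32 and -0.93 with 50, and the median of the other Hsd3b copies rests on Hsd3b7 alone. The median of all measured genes was 0.07 under total-count scaling. Depth limits genes under 50 reads.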

Other observations

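The summed Akr1c level was close in the 2 libraries, while the make-up of the family differed. Over 9 Akr1c symbols the libraries had 1386 CPM in the knockout-labelled library and 1403 CPM in wild type, a ratio of 0.988 whose counting interval (0.972 to 1.004) includes no difference. Akr1c6 took 74.0% (73.5 to 74.5) of those reads in the knockout-labelled library and 66.1% (65.6 to 66.6) in wild type, and Akr1c14 took 13.1% (12.7 to 13.5) in the knockout-labelled library and 18.4% (18.0 to 18.8) in wild type. Without Akr1c6 the sum had a ratio of 0.757 (0.735 to 0.781). Akr1c6 and Akr1c20, its closest relative among the Akr1c genes compared at 92.3% coding identity, had log2 ratios of 0.15 and -0.65. These comparisons were chosen after the values were seen.

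Summed over all 9 members the level was 2280 CPM in the knockout-labelled library and 2087 CPM in wild type, a ratio of 1.09 (1.08 to 1.11). In absolute terms the largest differences were those of Akr1c6, 98.3 CPM higher, and Hsd11b1, 94.8 CPM higher, in the knockout-labelled library. Hsd3b5 was 83.8 CPM higher, so the gene with the largest ratio was the third in absolute difference.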
